A study of Rattus norvegicus with 48 samples.

Results

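The genes described here encode the receptors for GABA, glycine and glutamate, the main fast transmitters of the brain, in the cerebral cortex of rats given RDX (hexahydro-1,3,5-trinitro-1,3,5-triazine), a nitramine explosive that causes seizures at high doses. They were taken from the gene symbols of the array's annotation: the GABA type A and type B subunits, the glycine receptor subunits, the AMPA, kainate, NMDA and delta subunits, and the metabotropic glutamate receptors. This gave 46 genes with 78 probe sets, among 14217 genes named by a single symbol and 31042 probe sets in all. The 46 were 16 GABA type A genes, 2 GABA type B genes, 4 glycine receptor genes, 4 AMPA genes, 5 kainate genes, 7 NMDA genes, 1 delta gene and 7 metabotropic glutamate receptor genes. A gene was represented in each tissue by its probe set with the highest mean there.

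RNA from cortex and liver was hybridised to 48 one-colour oligonucleotide arrays of the rat genome, 24 per tissue. The animals were male Sprague-Dawley rats, housed in pairs, that received RDX once by mouth in a gel capsule at a dose chosen to stay below seizure, either 3 or 18 mg/kg. Tissue was taken at 0, 4, 24 or 48 h, with 3 arrays for each tissue, dose and time. The design has no vehicle arm: each dose arm has its own 0 h group, which carries that arm's dose in its label, and the labels do not say how those rats were handled. No allele or other agent is named for any group. The labels do not state whether the 3 arrays of a group are 3 animals, so the p-values below measure the spread between arrays, and 3 arrays per group limit the precision of every value.

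GABA type A receptors are chloride channels built as rings of subunits drawn from alpha, beta, gamma, delta, epsilon, theta, pi and rho subunits. They give the cortex its fast inhibition. RDX binds at the picrotoxin site of this channel and blocks the chloride current. GABA type B receptors are pairs of metabotropic subunits, glycine receptors are chloride channels related to the GABA type A family, and AMPA, kainate and NMDA receptors are the cation channels of fast excitation, with metabotropic glutamate receptors tuning transmission on both sides of the synapse.

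Upstream sequences are shown for Gabra3, Gabra4, Grm7 and Grik1, which passed the test between the dose arms described further on: Gabra3, Gabra4 and Grm7, lower at 4 h, can be read beside Grik1, higher at 48 h. Each is the window of 250 bases before the RefSeq start of the gene in the GRCr8 assembly, written 5′ to 3′ along the gene. Capitals mark matches, on either strand, to TATAAA (the TATA box), CCAAT (the CAAT box) or GGGCGG (the GC box bound by Sp1). Gabra3, which encodes the alpha 3 subunit, lies on the minus strand at chrX:155543871-155544120.
Gabra3: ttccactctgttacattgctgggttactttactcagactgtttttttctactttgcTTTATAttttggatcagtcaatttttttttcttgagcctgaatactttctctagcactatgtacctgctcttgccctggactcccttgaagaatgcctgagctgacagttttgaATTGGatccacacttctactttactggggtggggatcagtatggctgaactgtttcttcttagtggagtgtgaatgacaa
Gabra4, the alpha 4 subunit, lies on the plus strand at chr14:36944497-36944746.
Gabra4: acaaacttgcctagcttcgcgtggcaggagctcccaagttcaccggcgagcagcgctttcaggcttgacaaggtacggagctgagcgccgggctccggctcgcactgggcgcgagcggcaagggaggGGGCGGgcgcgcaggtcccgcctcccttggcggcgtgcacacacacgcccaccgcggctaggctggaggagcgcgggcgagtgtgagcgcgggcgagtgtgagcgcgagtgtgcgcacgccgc
Grm7, the presynaptic metabotropic receptor mGlu7, lies on the plus strand at chr4:145286476-145286725.
Grm7: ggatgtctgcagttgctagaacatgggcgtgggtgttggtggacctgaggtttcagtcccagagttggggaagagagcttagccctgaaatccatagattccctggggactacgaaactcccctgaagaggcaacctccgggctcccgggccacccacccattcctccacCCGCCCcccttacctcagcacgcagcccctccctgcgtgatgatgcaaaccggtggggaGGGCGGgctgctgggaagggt
Grik1, the kainate subunit GluK1, lies on the minus strand at chr11:41056504-41056753.
Grik1: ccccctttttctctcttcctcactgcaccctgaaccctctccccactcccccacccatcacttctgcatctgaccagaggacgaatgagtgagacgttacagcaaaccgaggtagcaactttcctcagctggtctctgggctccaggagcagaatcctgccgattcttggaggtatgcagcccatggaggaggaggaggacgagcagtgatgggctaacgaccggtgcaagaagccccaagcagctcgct

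No motif searched was in all of these windows: Gabra3 holds a TATAAA and a CCAAT. Gabra4 holds a GGGCGG, Grm7 holds GGGCGG on both strands, and Grik1 holds none. A match is a run of letters, not a site. Both strands were searched, and matches of different motifs may share bases. Grin2b, also called lower at 4 h, had no window in the RefSeq table. Of the 46 receptor genes, 33 had one. GGGCGG was in 14 of these 33 (42.4%) against 30.5% of all 33469 windows, CCAAT in 13 (39.4%) against 34%, and TATAAA in 3 (9.09%) against 12.9%. The cAMP response element TGACGTCA was in 0 of the 33 and in 1.59% of all windows, GCGTGGGCG (an Egr site) in 0 and in 0.478%, and its variant GCGGGGGCG in 1 (3.03%) and in 2.45%. The median GC content was 57.6% over the receptor windows and 51.2% over all.

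The cortex arrays carried strong signal for neuron markers (mean of 8 genes between 10.96 and 11.32 on the log2 scale) and astrocyte markers (8 genes, 11.06 to 11.36). Striatal markers (11 genes) ranged from 7.38 to 9.34, lowest at 0 h of the 3 mg/kg arm. The mean of 11 hepatocyte markers was between 9.33 and 10.45 in 4 cortex arrays (3 mg/kg 4 h replicate 1, 18 mg/kg 4 h replicate 2, and 18 mg/kg 48 h replicates 2 and 3) and at most 7.47 in the other 20. A measure of RNA integrity on this array is the gap between the 3′ and the 5′ probe set of beta-actin. That gap was over 3 log2 units in 10 of the 24 cortex arrays: in all 3 at 18 mg/kg 4 h, in 2 each at 18 mg/kg 24 h, 18 mg/kg 48 h and 3 mg/kg 0 h, in 1 at 18 mg/kg 0 h, and in none of the later 3 mg/kg groups. The gap therefore moved with the dose arm after 0 h. In the 3 mg/kg arm it read 3.18, 3.60 and 1.88 at 0 h and from 1.65 to 2.73 in the later groups, and in the 18 mg/kg arm 2.48, 1.86 and 3.60 at 0 h.

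The first comparison set cortex against liver, a tissue that serves as the background for neuronal receptors. The cortex carried far more signal for the subunits of the main inhibitory and excitatory channels: at 0 h the GABA type A gene Gabrb2 was at least 85.6-fold higher, the GABA type B gene Gabbr2 107-fold, the glycine receptor subunit gene Glrb 64.7-fold, the AMPA gene Gria2 65.1-fold and the NMDA gene Grin1 29.3-fold. These are lower bounds, since the liver signal may be the background of the probe set. In limma with Benjamini-Hochberg adjustment over all probe sets, 39 of the 46 genes differed between 6 cortex and 6 liver arrays at 0 h, 30 higher and 9 lower in cortex, beside 77.4% of all probe sets called in either direction, 30.8% higher and 46.5% lower. Each gene stands here by its brightest probe set in cortex, a choice that favours cortex. Over all 78 probe sets 41 were higher and 21 lower, and the second probe set of Gabrb2 was lower in cortex by a log2 difference of -0.79 ± 0.17 (SE). Over all times, every cortex array lay above every liver array for 23 of the 46 genes, beside 16.6% of all probe sets, and below every liver array for 3 (Gabre, Gabrq and Glra1), beside 14.6%. Each gene was compared through its cortex probe set in both tissues.

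Among the GABA type A genes, 5 of 16 stood above liver in every array. Gabrb2, a beta subunit that forms part of the GABA binding site, ranged from 11.22 to 11.68 (median 11.39) over the 24 cortex arrays and from 4.21 to 5.79 over the 24 liver arrays. Gabrb1, another beta subunit, ranged from 10.26 to 10.99 (median 10.75) in cortex and from 5.76 to 7.16 in liver. Both beta genes held a range of under 1 log2 unit across all doses and times. Gabrd, the delta subunit of extrasynaptic receptors, ranged from 9.61 to 10.40 (median 9.95) against 4.57 to 6.10 in liver. Gabra5, an alpha subunit known chiefly from hippocampal and deep cortical extrasynaptic receptors, ranged from 9.34 to 9.93 (median 9.60) against 4.53 to 6.34. Gabra2, an alpha subunit of synaptic receptors, ranged from 5.89 to 7.31 (median 6.37) against 4.27 to 5.81, so that its lowest cortex array was just above the highest liver array.

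The other 11 GABA type A genes overlapped with liver or lay below it. Gabra4, which pairs with delta at extrasynaptic sites, ranged from 4.63 to 6.83 (median 5.96) in cortex and from 4.19 to 5.56 in liver, and Gabra3 from 4.06 to 5.68 (median 4.88) and from 3.94 to 5.29. At 0 h both were higher in cortex, Gabra4 by 1.22 ± 0.24 (SE) log2 units (limma adjusted p = 1.8e-05) and Gabra3 by 0.53 ± 0.18 (adjusted p = 0.0095). Gabrg1, a gamma subunit, was higher by 0.71 ± 0.21 (adjusted p = 0.0021). Gabra6, the subunit of cerebellar granule cells, was lower in cortex than in liver by a log2 difference of -0.55 ± 0.13 (adjusted p = 0.00042), and its cortex range of 4.05 to 4.59 lay within the liver range of 4.00 to 5.71. Gabre and Gabrq, the epsilon and theta subunits of a few brainstem and hypothalamic nuclei, were below liver in every array, at 4.36 to 5.08 against 5.16 to 6.54 and at 4.98 to 5.34 against 5.71 to 6.80. Gabrp, a pi subunit of epithelia, and the rho subunits Gabrr1 and Gabrr3, known from retina, were also lower in cortex at 0 h, by log2 differences of -0.52, -0.61 and -0.45. Gabrg3 and Gabrr2 did not pass the test, with differences of -0.17 ± 0.16 (adjusted p = 0.32) and -0.28 ± 0.13 (adjusted p = 0.052). For genes with a cortex signal at or below that of liver, the liver signal may be the background of the probe set. No detection call was made, so whether such a cortex signal is above background was not tested.

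In the other families, Gabbr1 and Gabbr2, which together form the GABA type B receptor, ranged from 11.61 to 12.36 and from 11.17 to 12.48 in cortex and stayed at or below 7.13 and 6.33 in liver. Glrb, the glycine receptor beta subunit that binds gephyrin, and Glra2, the alpha subunit of the immature cortex, stood above liver in every array, whereas Glra1 and Glra3, alpha subunits best known from spinal cord, were lower at 0 h by log2 differences of -0.90 and -0.70, and the NMDA gene Grin3b by one of -0.68. All 4 AMPA genes, Gria1 to Gria4, stood above liver in every array. So did 4 of 5 kainate genes (not Grik3), 3 of 7 NMDA genes (Grin1, Grin2a and Grin2c) and 3 of 7 metabotropic genes (Grm2, Grm3 and Grm4). Grin2b was higher than liver at 0 h by 1.11 ± 0.17 log2 units (adjusted p = 3.6e-07) and Grm7 by 2.02 ± 0.25 (adjusted p = 2.7e-09), while their ranges over all times met those of liver. Grid1, the delta family gene, and Grin3a, Grin2d, Grik3 and Grm6 did not pass the test against liver; Grin3a differed by -0.04 ± 0.19 (adjusted p = 0.84).

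**Figure D1:**
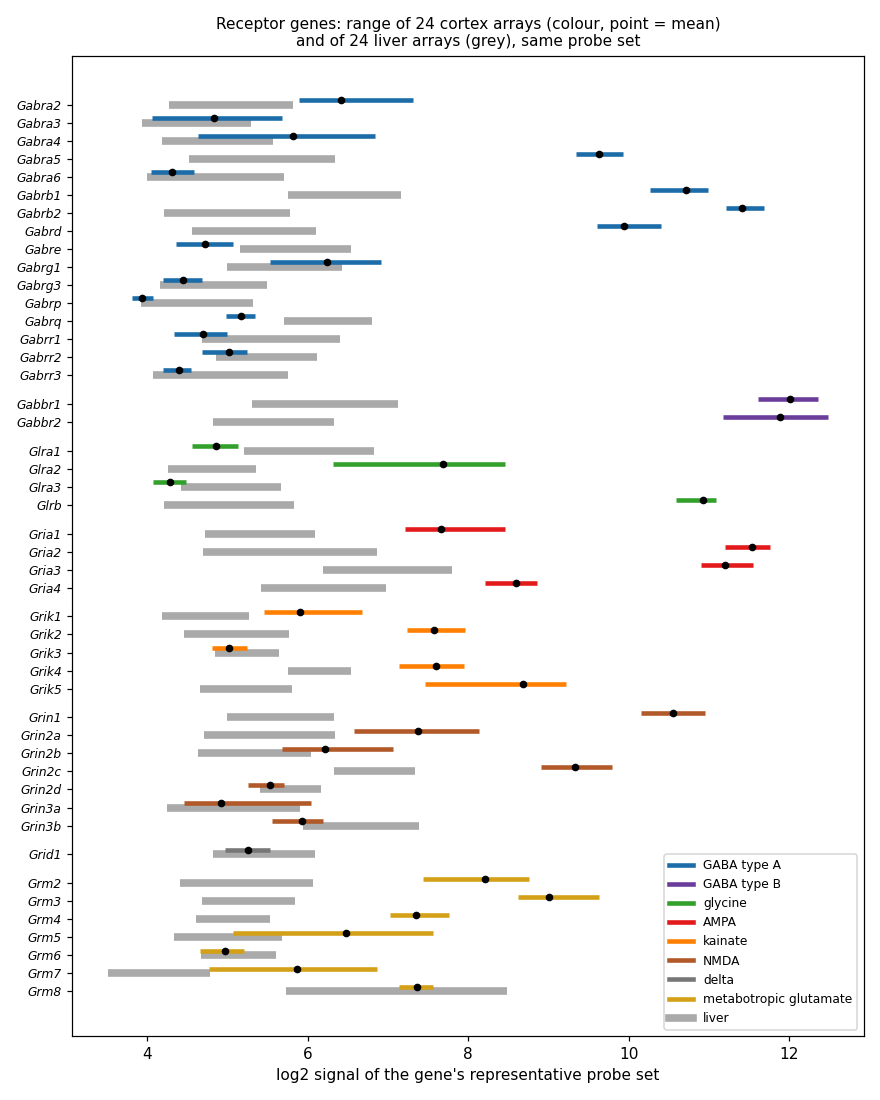
Horizontal bars give, for each of the 46 receptor genes on the vertical axis, the lowest to the highest log2 signal of its cortex representative probe set over 24 cortex arrays (coloured by family, the point marking the mean) and over 24 liver arrays (grey). Gabrb2, Gabbr2, Glrb and Gria2 sit far to the right of their liver bars, while Gabra3, Gabra4, Gabrg1, Grin2b and Grm7 have long cortex bars that meet the liver bar, and probe sets differ in brightness, so bars of different genes should not be compared for amount.

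Against 0 h, none of the 16 GABA type A genes passed the threshold in limma in either arm. There, 3, 1 and 2 had an unadjusted p under 0.05 at 4, 24 and 48 h after 3 mg/kg, beside 12.6%, 14.4% and 13% of all probe sets. After 18 mg/kg 2, 1 and 5 had one, beside 11%, 5.99% and 16.6%. Their differences ran from 0.87 ± 0.41 (Gabra4 at 3 mg/kg 4 h, limma adjusted p = 0.39) to -0.92 ± 0.41 (Gabra4 at 18 mg/kg 48 h, adjusted p = 0.27). Gabrb2 held group means between 11.36 ± 0.05 (SD, n = 3; 18 mg/kg 4 h) and 11.50 ± 0.04 (3 mg/kg 0 h), and Gabrb1 between 10.51 ± 0.09 (18 mg/kg 4 h) and 10.88 ± 0.10 (3 mg/kg 48 h). Gabra5 lay between 9.51 ± 0.10 (3 mg/kg 48 h) and 9.82 ± 0.13 (18 mg/kg 48 h). The group means of each of these subunits thus differed by less than 0.4 log2 units. Gabrd was highest at 3 mg/kg 0 h, at 10.21 ± 0.21, and lowest at 18 mg/kg 24 h, at 9.75 ± 0.16. In the 3 mg/kg arm its arrays read 10.23, 10.40 and 9.99 at 0 h and 9.67, 9.97 and 9.90 at 24 h, so the 24 h arrays all lay below the 0 h arrays, narrowly. The log2 difference was -0.36 ± 0.15 (SE; limma adjusted p = 0.28), and in the 18 mg/kg arm it was -0.15 ± 0.15 (adjusted p = 0.89).

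Gabra3 and Gabra4 varied more between arrays than the beta subunits. Gabra3 read 4.60, 4.15 and 5.65 at 3 mg/kg 0 h, 5.32, 5.48 and 5.68 at 4 h, 4.89, 5.12 and 5.31 at 24 h, and 5.11, 5.25 and 4.87 at 48 h. In the 18 mg/kg arm it read 4.97, 5.39 and 4.74 at 0 h, 4.12, 4.32 and 4.52 at 4 h, 5.17, 4.14 and 4.34 at 24 h, and 4.33, 4.35 and 4.06 at 48 h. The 18 mg/kg arrays at 4 h and 48 h all lay below every 0 h array of their arm, while the 3 mg/kg 4 h arrays overlapped with their own 0 h group because its replicate 3 read as high as they did. Against 0 h the difference at 4 h was 0.69 ± 0.29 after 3 mg/kg (adjusted p = 0.37) and -0.71 ± 0.29 after 18 mg/kg (adjusted p = 0.45), and at 48 h after 18 mg/kg it was -0.78 ± 0.29 (adjusted p = 0.19). The actin gap of these 18 mg/kg groups was 4.03, 3.63 and 3.33 at 4 h and 4.61, 2.95 and 4.39 at 48 h, and with the gap as a covariate the differences were -0.24 and -0.17.

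Gabra4 followed the same arrays. It read 5.52, 5.14 and 6.71 at 3 mg/kg 0 h, 6.47, 6.68 and 6.83 at 4 h, 6.02, 5.90 and 6.53 at 24 h, and 6.34, 6.51 and 6.01 at 48 h. In the 18 mg/kg arm it read 6.05, 6.47 and 5.14 at 0 h, 4.82, 5.39 and 5.33 at 4 h, 6.62, 4.88 and 5.52 at 24 h, and 4.84, 5.42 and 4.63 at 48 h. Within both 0 h groups and the 18 mg/kg 24 h group the 3 arrays spread over more than 1 log2 unit, and in each of these groups the arrays with an actin gap over 3 were the low ones. Gabrg1 had the same spread, from 5.53 to 6.81 within the 18 mg/kg 0 h group.

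Gabra2 lay between 6.05 ± 0.04 (3 mg/kg 48 h) and 6.72 ± 0.39 (18 mg/kg 48 h), and these 2 groups differed by 0.67 ± 0.27 (SE; limma adjusted p = 0.14). Gabre, below liver in every array, lay between 4.49 ± 0.12 (3 mg/kg 4 h) and 4.91 ± 0.22 (18 mg/kg 24 h). Gabra6 ranged over group means from 4.12 to 4.47, Gabrg3 from 4.32 to 4.54, Gabrp from 3.88 to 3.97 and Gabrq from 5.06 to 5.28. The rho genes Gabrr1, Gabrr2 and Gabrr3 ranged from 4.58 to 4.79, from 4.81 to 5.12 and from 4.34 to 4.44. Gabrr2 was lowest at 18 mg/kg 48 h, where its arrays read 4.89, 4.84 and 4.69 against 4.96, 5.09 and 5.25 at 0 h; they did not overlap, and the difference was -0.29 ± 0.10 (limma adjusted p = 0.17).

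**Figure D2:**
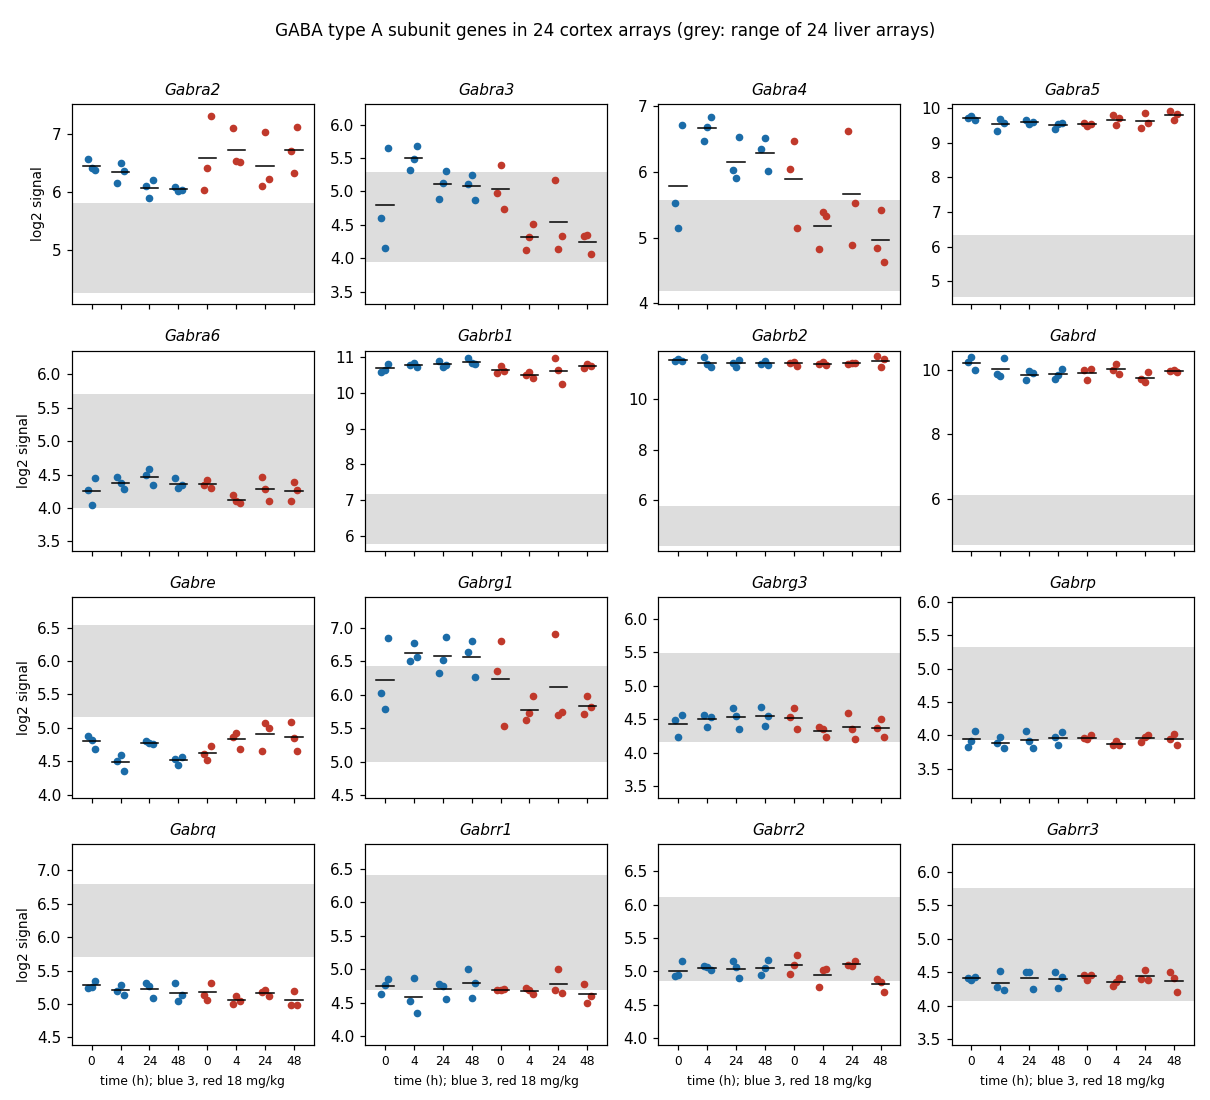
Each panel plots 1 GABA type A gene, with the log2 signal of its representative probe set on the vertical axis and time in hours on the horizontal axis; blue points are the 3 mg/kg arm, red points the 18 mg/kg arm, each point 1 array, each short line the mean of 3, and the grey band the range of 24 liver arrays. Gabrb1, Gabrb2, Gabrd and Gabra5 sit in flat rows far above the band, whereas the red points of Gabra3 and Gabra4 at 4 h (4.12 to 4.52 and 4.82 to 5.39) lie below the blue points (5.32 to 5.68 and 6.47 to 6.83).

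Across all 46 receptor genes, none passed an adjusted p of 0.05 in limma in any of the 6 comparisons with the 0 h group of the same arm. After 3 mg/kg, 4, 4 and 5 genes had an unadjusted p under 0.05 at 4, 24 and 48 h, beside 12.6%, 14.4% and 13% of all probe sets. After 18 mg/kg 5, 2 and 10 genes had one, beside 11%, 5.99% and 16.6%. The share of all probe sets called was 0% in 5 of the 6 comparisons and 0.0741% at 24 h after 3 mg/kg. Arrays did not overlap with 0 h in 1 higher and 1 lower gene at 3 mg/kg 4 h, beside 6.47% and 9.59% of all probe sets (16.1% together). At 24 h they did not in 2 and 4 genes, beside 10.5% and 9.14% (19.6%), and at 48 h in 3 and 5, beside 9.86% and 10.8% (20.6%). After 18 mg/kg they did not overlap in 1 higher and 4 lower at 4 h, beside 8.77% and 8.23% (17%), in 1 and 1 at 24 h, beside 4.33% and 4.58% (8.91%), and in 2 and 3 at 48 h, beside 6.8% and 7.99% (14.8%). The shares among receptor genes were under those of the array in each of the 6, both directions together. With both arms joined, 18 later arrays against 6 at 0 h gave 0 of 46 genes by limma, beside 0.00322% of all probe sets. An unadjusted p under 0.05 was found in 2 genes, beside 5.92%. The test of whether the time course differed between doses also gave 0 of 46 by limma, beside 0.00322%. Here 8 genes had an unadjusted p under 0.05, beside 16.7%.

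The receptor gene with the smallest p-value against 0 h was Gabbr2, whose product carries the GABA type B receptor to the surface and couples it to G proteins. Its arrays read 12.30, 12.36 and 11.90 at 3 mg/kg 0 h, 11.83, 11.77 and 12.18 at 4 h, 11.17, 11.30 and 11.44 at 24 h, and 11.54, 11.59 and 11.61 at 48 h. Every 24 h and every 48 h array lay below every 0 h array. The difference was -0.88 ± 0.18 (SE) at 24 h (limma adjusted p = 0.064) and -0.60 ± 0.18 at 48 h (adjusted p = 0.28). The actin gap was 2.18, 2.02 and 2.08 at 24 h and 2.11, 2.19 and 2.73 at 48 h, below 2 of the 3 arrays at 0 h, and with it as a covariate Gabbr2 differed by -0.69 (limma adjusted p = 0.098) and -0.47 (adjusted p = 0.26). Without the covariate it passed at 24 h when only the brighter probe sets or 1 probe set per gene were tested, and without replicate 3 of the 0 h group. Striatal markers (11 genes) averaged 8.25 ± 0.75 (SD) at 3 mg/kg 0 h, 9.09 ± 0.03 at 24 h and 8.71 ± 0.36 at 48 h. At 24 h, 9 of the 11 had an unadjusted p under 0.05 in limma, beside 14.4% of all probe sets, and 0 were called. In the same comparison 1 of 12 interneuron markers, Calb2, was called higher (0.99 ± 0.16, limma adjusted p = 0.029), beside 0.0741% of all probe sets called. Among 11 pyramidal neuron and 9 microglia markers, 5 in each list had an unadjusted p under 0.05 in limma and 0 were called. The part of these markers in the result was not tested. In the 18 mg/kg arm the Gabbr2 arrays read 11.60, 11.62 and 12.19 at 0 h, 12.24, 12.27 and 12.23 at 4 h, 11.50, 12.23 and 11.60 at 24 h, and 12.48, 12.06 and 12.35 at 48 h. The test of a dose difference in its time course gave an adjusted p of 0.19, and 0.64 with the actin gap as a covariate. Gabbr1, the partner that binds GABA, held group means between 11.70 ± 0.15 (18 mg/kg 48 h) and 12.19 ± 0.23 (3 mg/kg 24 h).

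Among the glycine receptor genes, Glra2 read 7.46, 7.79 and 6.31 at 3 mg/kg 0 h and 7.30, 7.68 and 7.63 at 18 mg/kg 0 h, against 7.32 to 8.46 over the 18 later arrays. The lowest value was that of a single 0 h array, and the others overlapped with the later arrays. Over both arms the difference was 0.44 ± 0.17 (limma adjusted p = 0.77). Glrb held group means between 10.85 ± 0.05 and 11.01 ± 0.01, and Glra3, lower than liver at 0 h, between 4.19 ± 0.10 and 4.39 ± 0.08.

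Among the kainate genes, Grik2, a subunit of the main cortical kainate receptor, read 7.29, 7.43 and 7.26 at 3 mg/kg 0 h, 7.84, 7.79 and 7.96 at 24 h and 7.67, 7.82 and 7.71 at 48 h. The 24 h and 48 h arrays all lay above the 0 h arrays, by 0.54 ± 0.14 (limma adjusted p = 0.12) and 0.41 ± 0.14 (adjusted p = 0.30). The 18 mg/kg differences were 0.16 ± 0.14 and -0.10 ± 0.14. The part of the striatal markers, whose means in these 3 mg/kg groups are given above, and of the other markers named there was not tested. Grik5, a high-affinity kainate subunit, read 8.95, 8.58 and 8.81 at 18 mg/kg 0 h and 8.23, 8.56 and 7.47 at 48 h, a difference of -0.70 ± 0.23 (adjusted p = 0.16) in which 1 array set most of the distance. Grik3 held group means between 4.93 ± 0.15 and 5.08 ± 0.04.

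Other members of the glutamate receptor families are given by their group means. Gria2, the AMPA subunit that keeps calcium out of the channel, held group means between 11.39 ± 0.11 and 11.69 ± 0.07, and Grin1, the obligatory NMDA subunit, between 10.36 ± 0.23 and 10.78 ± 0.05. Gria1 lay between 7.42 ± 0.07 and 7.91 ± 0.40. Grm3, an astrocyte and presynaptic receptor, lay between 8.76 ± 0.19 and 9.28 ± 0.46, and Grm6, the receptor of retinal bipolar cells, between 4.82 ± 0.15 and 5.14 ± 0.10. Grid1, a delta subunit of synapse organisation, lay between 5.16 ± 0.05 and 5.40 ± 0.07.

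The other genes with the smallest p-values against 0 h were Gabre at 3 mg/kg 4 h (-0.31 ± 0.11, limma adjusted p = 0.36) and 48 h (-0.28 ± 0.11, adjusted p = 0.34), and Grik1 and Gabbr2 at 18 mg/kg 4 h, each 0.44 ± 0.18 (adjusted p = 0.45). At 18 mg/kg 24 h they were Gabre (0.29 ± 0.11), Grik1 (0.41 ± 0.18) and Grin2b (-0.44 ± 0.22), each with an adjusted p of 0.82. At 18 mg/kg 48 h Grik1 differed from 0 h by 0.62 ± 0.18 (adjusted p = 0.12). Over both arms, Grik2 differed at later times by 0.20 ± 0.08 (adjusted p = 0.80) and Gabrd by -0.15 ± 0.08 (adjusted p = 0.86). For the dose difference in time course the next after Gabbr2 were Grik1 (adjusted p = 0.20) and Gabre (adjusted p = 0.23). None of these passed the threshold.

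The direct comparison of the dose arms at the same time asked whether the higher dose left other receptor levels than the lower one; it shares its groups with the comparisons above. At 0 h none of the 46 genes differed by limma, beside 0% of all probe sets, and 0 had an unadjusted p under 0.05, beside 4.35%. Arrays did not overlap in 0 higher and 2 lower genes, beside 3.92% and 4.45% (8.37% together). Gabrd (-0.30 ± 0.15), Gabbr2 (-0.38 ± 0.18) and Gabra5 (-0.18 ± 0.11) came nearest, each with an adjusted p of 0.99. At 4 h, 4 genes were lower after 18 mg/kg and none was higher: Gabra3, Gabra4, Grin2b and Grm7. That count stood beside 2.38% of all probe sets called lower and 1.32% called higher, 3.7% together. Arrays did not overlap in 10 higher and 10 lower receptor genes, beside 20.1% and 18.3% of all probe sets (38.4% together), and the median log2 difference over the 46 genes was -0.03 against 0.04 over all genes. At 24 h none differed by limma, beside 0%, and 3 had an unadjusted p under 0.05, beside 12.4%. Arrays did not overlap in 2 higher and 2 lower genes, beside 5.61% and 6.45% (12.1%). The 3 genes at an unadjusted p under 0.05 were Gabbr2 (0.47 ± 0.18, adjusted p = 0.37), Grik1 (0.42 ± 0.18, adjusted p = 0.38) and Grm2 (-0.52 ± 0.24, adjusted p = 0.39). At 48 h 1 gene, Grik1, was higher after 18 mg/kg, beside 0.351% of all probe sets called higher, 0.97% lower and 1.32% in either direction, and arrays did not overlap in 8 higher and 10 lower genes, beside 10.5% and 14.1% (24.6%).

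At 4 h, Gabra3 averaged 5.49 ± 0.18 (SD, n = 3) after 3 mg/kg and 4.32 ± 0.20 after 18 mg/kg, a log2 difference of -1.17 ± 0.29 (SE; limma adjusted p = 0.046). Gabra4 averaged 6.66 ± 0.18 and 5.18 ± 0.31, a difference of -1.48 ± 0.41 (adjusted p = 0.049). The arrays of both genes were given above, and all 3 arrays at 18 mg/kg lay below all 3 at 3 mg/kg. The 18 mg/kg arrays of both genes lay inside the liver range of the same probe set. For Gabra3 they thus stand at a level not above that of liver. For Gabra4 the top of the liver range, 5.56, was a single array, 18 mg/kg 4 h replicate 1, with a hepatocyte mean of 10.29 and an actin gap of 0.62. The next highest liver array read 5.02, under the Gabra4 mean of 5.18, so a Gabra4 mean inside the liver range rests on that single array. The differences of both genes are those of the measured signals.

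Grin2b, the NMDA subunit that dominates early in development and carries much of the ifenprodil-sensitive current, read 6.67, 6.80 and 7.07 at 3 mg/kg 4 h and 5.95, 5.79 and 5.86 at 18 mg/kg 4 h. The groups did not overlap, and the difference was -0.98 ± 0.22 (limma adjusted p = 0.044). The 18 mg/kg arrays of Grin2b lay inside the liver range of the same probe set, 4.63 to 6.04. Grm7, a presynaptic brake on transmitter release, read 6.62, 6.63 and 6.87 at 3 mg/kg and 4.85, 5.19 and 5.21 at 18 mg/kg. The groups did not overlap, and the difference was -1.62 ± 0.43 (adjusted p = 0.047). For Grin2b the 3 mg/kg 0 h arrays were 5.82, 5.88 and 6.91 and the 18 mg/kg 0 h arrays 6.50, 6.57 and 5.98, so the 4 h difference joined a difference of 0.65 ± 0.22 from 0 h in one arm (adjusted p = 0.36) with one of -0.48 ± 0.22 in the other (limma adjusted p = 0.45), neither past the threshold.

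The 4 h groups also differed in RNA integrity. The actin gap read 2.30, 2.31 and 1.65 at 3 mg/kg 4 h and 4.03, 3.63 and 3.33 at 18 mg/kg 4 h, with no overlap. With that gap as a covariate 0 of the 46 genes passed in limma. Gabra3 then differed by -0.45 (adjusted p = 0.85), Gabra4 by -0.35 (adjusted p = 0.89), Grin2b by -0.49 (adjusted p = 0.80) and Grm7 by -0.42 (adjusted p = 0.84). Because no 4 h array of one arm has a gap in the range of the other, dose and RNA integrity cannot be told apart at 4 h. All 4 calls were also lost when any 1 of the 6 arrays was left out, and when the 4 cortex arrays with a hepatocyte mean over 8 were. Pyramidal neuron markers (11 genes) averaged 8.54 to 8.79 at 3 mg/kg 4 h and 8.22 to 8.44 at 18 mg/kg 4 h, with 2 of the 11 called lower. Of the other marker lists, 1 of 8 neuron genes (Syt1) was called lower and 1 of 9 microglia genes (Csf1r) higher, with list means of 11.11 to 11.32 and 7.76 to 7.94 at 3 mg/kg and of 11.07 to 11.17 and 7.78 to 7.93 at 18 mg/kg. The part of these markers in the result was not tested. In bulk tissue fewer cells of a type and less RNA per cell cannot be told apart.

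Grik1, a kainate subunit of cortical interneurons, read 5.46, 5.57 and 5.62 at 3 mg/kg 48 h and 6.17, 6.15 and 6.67 at 18 mg/kg 48 h. The groups did not overlap, and the difference was 0.78 ± 0.18 (limma adjusted p = 0.045). In the 18 mg/kg arm the arrays had read 5.63, 5.48 and 6.02 at 0 h, 6.11, 6.01 and 6.33 at 4 h and 5.84, 5.99 and 6.52 at 24 h, and in the 3 mg/kg arm 5.97, 6.21 and 5.70 at 0 h. At 48 h the actin gap was 2.11, 2.19 and 2.73 after 3 mg/kg and 4.61, 2.95 and 4.39 after 18 mg/kg, again with no overlap, and the hepatocyte marker mean was 9.97 and 10.45 in 2 of the 18 mg/kg arrays. The mean of 9 microglia markers was 7.82 to 7.92 after 3 mg/kg and 7.58 to 7.64 after 18 mg/kg, with 2 called lower. Beside it, 1 of 7 endothelial and blood markers (Pecam1) was called lower, with list means of 8.87 to 8.96 and 8.76 to 8.90. Their part in the result was not tested. With the gap as a covariate Grik1 differed by 0.48 (adjusted p = 0.74), and no receptor gene passed; none passed either when arrays with a hepatocyte mean over 8 were left out, which leaves 1 array in the 18 mg/kg group. Replicate 2 of the 18 mg/kg 48 h group has both the smallest gap of its group and a hepatocyte mean of 9.97. Leaving it out raised the count from 1 to 11 genes, 6 higher and 5 lower. The share of all probe sets under that setting is not given here, so this count is not read as particular to receptor genes. The call of Grik1 held there and without replicate 1 of that group, and was lost without replicate 3 or without any 1 of the 3 mg/kg arrays. The genes next in p-value at 48 h were Gabbr2, higher by 0.72 ± 0.18 (adjusted p = 0.055), and Grik5, lower by a log2 difference of -0.82 ± 0.23 (adjusted p = 0.065).

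**Figure D3:**
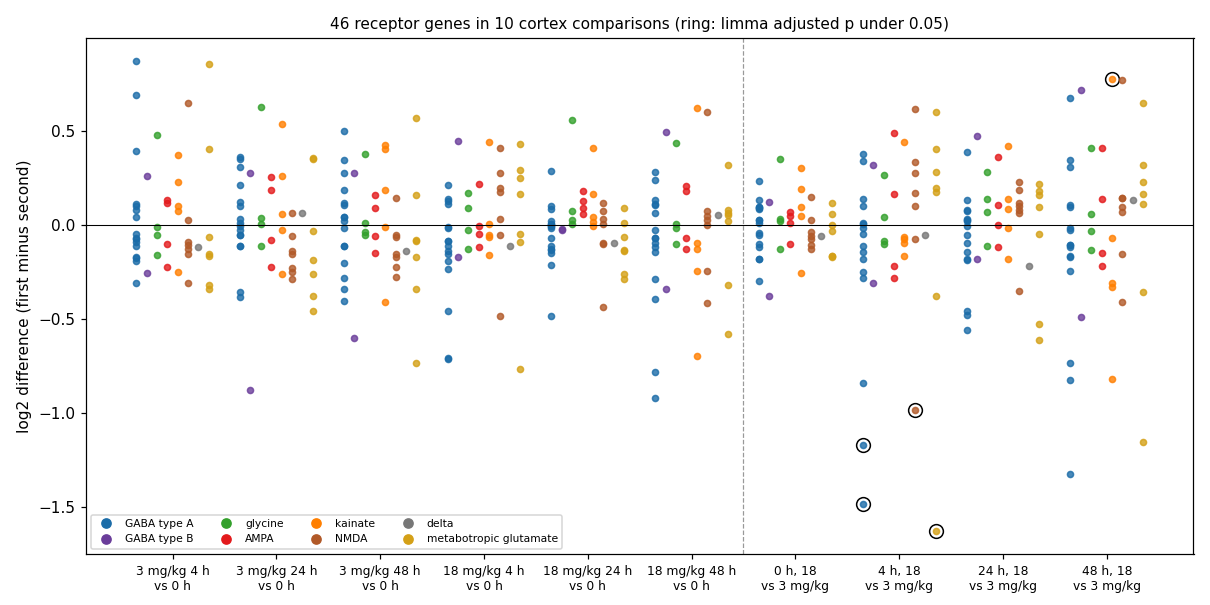
Points give the log2 difference of each of the 46 receptor genes (vertical axis) in 10 cortex comparisons (horizontal axis), coloured by family; the dashed line separates the comparisons with 0 h from those between doses, and a ring marks a limma adjusted p under 0.05. The rings are 4 genes at 4 h between doses, from -0.98 (Grin2b) to -1.62 (Grm7), and Grik1 at 0.78 at 48 h, while no point against 0 h has a ring.

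Because the gap moved with the dose arm, its relation to each gene was measured inside the groups, by a slope in limma with group means removed; this was added after the values were seen. Of the 46 genes, 19 had a slope past the threshold, 10 up and 9 down with a larger gap, beside 26.2% of all probe sets (12.8% up and 13.4% down). The genes called lower at 4 h were all among those with a negative slope. Grm7 fell by 0.76 ± 0.06 (SE) log2 units per unit of gap (limma adjusted p = 2.3e-07), Gabra4 fell by 0.72 ± 0.07 (adjusted p = 1.1e-06), Gabra3 fell by 0.46 ± 0.07 (adjusted p = 0.00012) and Grin2b fell by 0.31 ± 0.07 (adjusted p = 0.0018). Gabrg1 fell by 0.52 ± 0.07 (adjusted p = 4e-05), and Gabra6, Gabrg3, Gabbr1 and Grik4 had smaller negative slopes of -0.11 to -0.18.

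On the rising side, Grm5, the main postsynaptic mGlu receptor, had a slope of 0.72 ± 0.13 (limma adjusted p = 0.00066), Gria1 one of 0.42 ± 0.06 (adjusted p = 0.00011) and Grin3a one of 0.37 ± 0.07 (adjusted p = 0.0011). Gabra2 rose by 0.33, Gabbr2 by 0.24 and Grik1 by 0.18 ± 0.07 per unit of gap (adjusted p = 0.048), and Grm3, Grm4, Grin2c and Gabre also had positive slopes. By family the slopes were called in 7 of 16 GABA type A genes (2 up, 5 down), both GABA type B genes, 0 of 4 glycine genes and 0 of 1 delta gene (0 at an unadjusted p under 0.05 in limma in either family), 1 of 4 AMPA, 2 of 5 kainate, 3 of 7 NMDA and 4 of 7 metabotropic genes. The beta subunits, Gabrd and Gabra5 were not among those called, but Gabra5 came near (0.11 ± 0.04, limma adjusted p = 0.052). Gabra5 was called with quantile normalisation, with arrays centred on their median, with only brighter probe sets and with array weights. Gabrb1 was called with array weights. Gabrb1, Gabra4 and Gabrg1 lie on chromosome 14, and in the same arrays Gabra4 and Gabrg1 had the slopes given above while that of Gabrb1 was -0.11 ± 0.05 (limma adjusted p = 0.095).

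For 4 genes the arrays with a gap over 3 stood wholly apart from the rest through the representative probe set. Grm7 ranged from 4.77 to 5.61 (median 5.11) in the 10 arrays over 3 and from 5.90 to 6.87 (median 6.47) in the other 14, and Grin2b from 5.68 to 6.01 against 6.11 to 7.07. Gria1 ranged from 7.66 to 8.46 against 7.22 to 7.62, and Grin3a from 4.81 to 6.04 against 4.46 to 4.80. These are 2 lower and 2 higher genes, beside 2.83% and 2.84% of all probe sets.

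**Figure D4:**
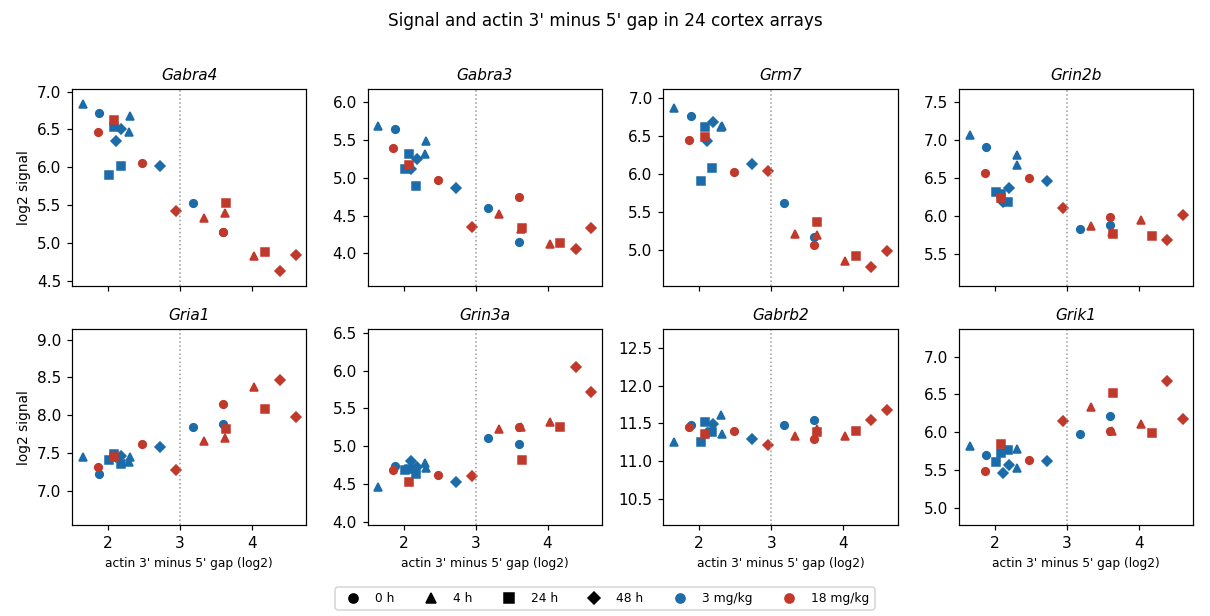
Each panel plots the log2 signal of 1 receptor gene (vertical axis) against the gap between the 3′ and 5′ beta-actin probe sets (horizontal axis, log2) in 24 cortex arrays; colour gives the dose, the marker shape the time and the dotted line a gap of 3. Gabra4, Gabra3, Grm7 and Grin2b go down to the right in both dose arms, Gria1 and Grin3a go up, and Gabrb2 stays between 11.22 and 11.68.

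The probe sets of a single gene could differ in their slopes. Of the 46 genes, 23 had more than 1 probe set; in 10 of these some but not all slopes on the gap were called, in 1 (Gabbr2) all were, and in 12 none. Gabbr2 was called in both directions, at 0.24 for the probe set used above and at -0.16 for its other one. For Glrb 1 probe set had a slope of -0.62 ± 0.08 and the brightest one did not pass, and the first differed between doses at 4 h by -1.33 ± 0.37 (limma adjusted p = 0.05, rounded from above) while the brightest differed by -0.10 ± 0.11. Grin2b, called lower at 4 h, has a second probe set that differed by 0.06 ± 0.12 (adjusted p = 0.78). For Gria3 the slopes were 0.72 ± 0.16 and -0.03, and for Grm5 0.72 and 0.03. Over all 78 probe sets, 5 were called lower at 4 h between doses and 0 higher: those of the 4 genes named and 1 of the 5 for Gabbr1, which differed by -1.01 ± 0.26 (adjusted p = 0.046). That Gabbr1 probe set also differed at 48 h, by -1.29 ± 0.26 (adjusted p = 0.044), while the brightest differed by -0.49 ± 0.15 (adjusted p = 0.075). Each value is that of the stretch of transcript its probe set reads.

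**Figure D5:**
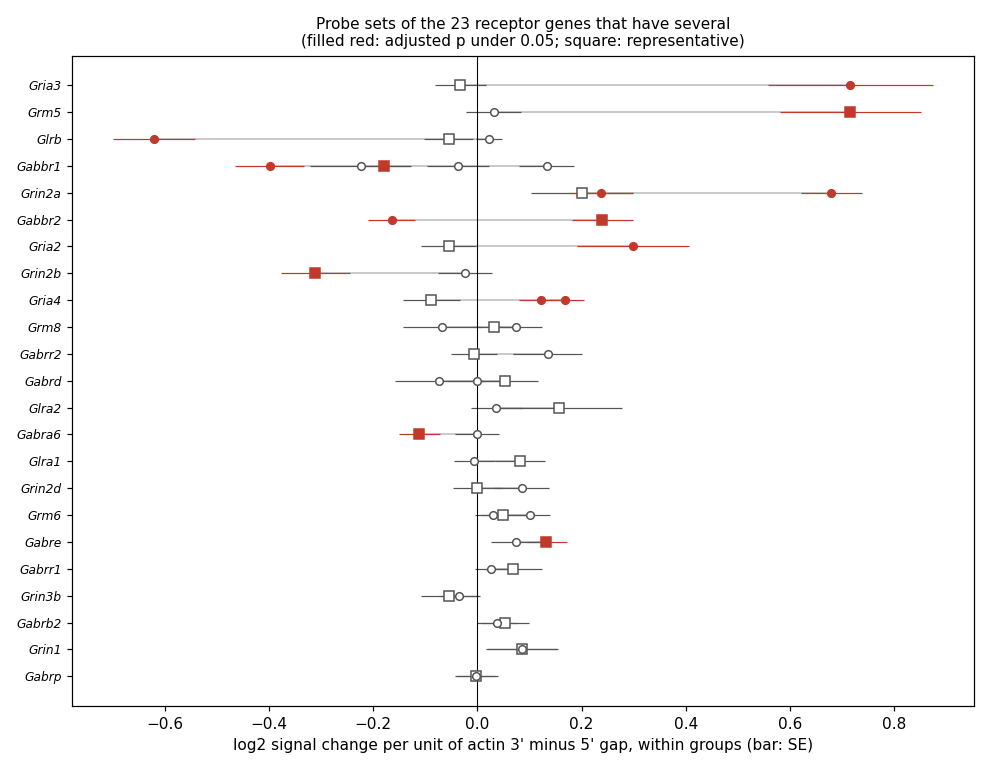
Points give the slope of log2 signal on the actin gap within groups (horizontal axis, with bars of 1 SE) for every probe set of the 23 receptor genes that have several (vertical axis); filled red points pass a limma adjusted p of 0.05 and squares mark the probe set that represents the gene. Gria3 spans -0.03 to 0.72 and Glrb -0.62 to 0.02, while Gabrb2, Grin1 and Gabrp have probe sets that lie together near 0.

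Other genes of GABA, glycine and glutamate transmission were taken from a list of 53, of which 45 were measured: synthesis and breakdown enzymes, transporters, scaffolds and auxiliary subunits. None of the 45 passed in limma against 0 h. Of them, 5, 7 and 4 had an unadjusted p under 0.05 at 4, 24 and 48 h after 3 mg/kg, beside 12.6%, 14.4% and 13% of all probe sets. After 18 mg/kg 5, 3 and 10 had one, beside 11%, 5.99% and 16.6%. The smallest p-values after 3 mg/kg were those of Slc17a7, a vesicular glutamate transporter, at 4 h (1.46 ± 0.52, adjusted p = 0.36) and of Dbi, a peptide that acts at the benzodiazepine site, at 24 h (0.83 ± 0.20, adjusted p = 0.10) and 48 h (0.70 ± 0.20, adjusted p = 0.28). After 18 mg/kg they were those of Aldh5a1, which degrades GABA's product succinic semialdehyde, at 4 h (0.47 ± 0.17, adjusted p = 0.45) and of Cacng2, the AMPA receptor partner stargazin, at 24 h (-0.90 ± 0.29, adjusted p = 0.82) and 48 h (-1.21 ± 0.29, adjusted p = 0.095). Between doses, 2 of 45 were lower at 4 h and 0 higher, beside 2.38% and 1.32% of all probe sets: Slc17a7 by -2.01 ± 0.52 (adjusted p = 0.046) and Cacng8, another AMPA receptor partner, by -0.84 ± 0.23 (adjusted p = 0.049). At 48 h 1 of 45 was higher, beside 0.351% of all probe sets, Aldh5a1 by 0.79 ± 0.17 (adjusted p = 0.045). All 3 also had called slopes on the gap, of -0.87, -0.27 and 0.25, among 10 rising and 7 falling genes of the list, beside 12.8% and 13.4% of all probe sets. In the comparisons that called none, the smallest p-values were those of Dlgap1, a scaffold protein, between doses at 0 h (-0.39 ± 0.11, limma adjusted p = 0.99), of Slc17a7 between doses at 24 h (-1.46 ± 0.52, adjusted p = 0.37), of Cacng4 at later times (-0.17 ± 0.05, adjusted p = 0.58) and of Dlgap1 for the dose difference in time course (adjusted p = 0.15).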

How the data were processed

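Gene expression was measured on 48 arrays, 24 of cortex and 24 of liver, in 16 groups of 3. The values are log2 intensities as deposited by the authors, made with RMA and Partek per the submitters' processing notes; versions and settings are not given in the sources used here. Of 31099 probe sets, 57 controls were left out. Of the 31042 tested, 20826 had 1 gene symbol, 436 several and 9780 none, per the platform annotation. All 24 cortex arrays entered 1 limma fit (limma 3.58.1, R 4.3.3) with 1 mean per group; tests were two-sided, adjusted by Benjamini-Hochberg over 31042 probe sets, with a threshold of 0.05. Cortex was tested against liver on 6 and 6 arrays at 0 h. There were 14 such results. The code was tested on simulated data. No 2 arrays held identical values. The depth of an array is unknown in counts; 3 arrays per group limit the precision.

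Genes were named by rule: every GABA type A subunit, the members with the highest and lowest cortex mean in other families, every gene past the threshold, the 3 smallest p-values per comparison, and called or smallest-p genes of the transmission list. The genes and lists were chosen with earlier results of these data known. Promoter windows are from RefSeq, GRCr8, matched by symbol. Alternatives covered normalisation, dim probe sets, probe set choice, array weights, the actin gap, liver markers, the replicate block and leaving out each array.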

Additional observations from a re-analysis of the deposited data

How the results depend on the processing

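Of 138 alternatives to the 14 counts of receptor genes called by limma other than leaving out single arrays in turn, 112 gave a count within 1.5 times the reported one and 26 did not. Of 4446 values of single genes under the alternatives, 4276 stayed on their side of the threshold, 109 lost the call, 61 gained one and 0 reversed. Direction was compared only for values called as reported or under the alternative, and not for the dose difference in time course. Values called in neither fit could change sign and were counted as unchanged. With array weights, whose estimation stopped before its tolerance was reached, the counts were 7, 3 and 7 after 3 mg/kg at 4, 24 and 48 h against 0 h, 15 and 12 after 18 mg/kg at 4 and 48 h, 3, 15 and 15 between doses at 0, 4 and 48 h, and 20 for the dose difference in time course. With only brighter probe sets they were 1 (3 mg/kg 24 h), 0 and 2 (between doses at 4 and 48 h), 25 (cortex against liver) and 11 (slope on the gap), with fewer genes tested. The 2 at 48 h were Gabbr2 and Grik5, and Grik1 was not among them. This filter left out dim genes, so its counts do not retest those genes. With 1 probe set per gene the counts were 1 (3 mg/kg 24 h), 1 and 3 (between doses at 4 and 48 h), and counting any probe set of a gene gave 2 at 48 h. With the actin gap as a covariate both dose counts were 0. With arrays of a hepatocyte mean over 8 left out both were 0 as well, on 2 arrays a group at 4 h and on 1 array of the 18 mg/kg group at 48 h. With arrays of a gap over 3 left out they were 3 at 18 mg/kg 48 h against 0 h and 3 between doses at 48 h, again on 1 array of the 18 mg/kg 48 h group. A lone array is assumed to vary like the other groups; the 4 h comparison could not be fitted. The counts in this section are given without the share of all probe sets called under each setting, so they are not read as particular to receptor genes. The cause of these shifts was not tested beyond the smaller number of genes or arrays.

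With the replicate number as a block the counts between doses were 0 at 4 h and 0 at 48 h, 18 for the slope on the gap, 39 for cortex against liver and 0 elsewhere. The numbers did not pair the arrays: of 30 pairs of same-numbered arrays, 5 had deviations correlated over 0.1 (range -0.71 to 0.48), and in 0 of 10 comparisons did every pair.

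Leaving out each array in turn gave 0 to 1 genes after 3 mg/kg at 4 h and at 24 h (1 without replicate 3 of the 0 h group), 0 at 48 h, 0 after 18 mg/kg at 4 h and 24 h, and 0 to 4 at 48 h (4 without replicate 2 of that group). Between doses it gave 0 at 0, 4 and 24 h and 0 to 11 at 48 h (11 without replicate 2 of the 18 mg/kg group). It gave 0 for later times, 0 to 2 for the dose difference in time course (2 without replicate 3 of the 3 mg/kg 0 h group), 38 to 40 for cortex against liver and 14 to 20 for the slope on the gap. The slope on the gap and its alternatives, the gap of GAPDH among them, were added after seeing the data.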
